A study of Homo sapiens with 8 samples.

Results

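The genes described here are HR, FURIN, BCL3, ME1, STAT5A, PDK4, ATP2A2, NRGN and TXNIP, 9 genes known as targets of thyroid hormone receptors, chosen by symbol from the 56832 gene rows of the count files and leaving out KLF9. All 9 had a row and all 9 passed the filter on low counts, among 14611 genes tested. RNA came from Nthy-ORI, an established line of human thyroid epithelial cells immortalised with a viral large T antigen. All cultures were first deprived of hormone for 24 h in medium with charcoal-stripped serum. They then received 10 nM T3 (triiodothyronine, the active thyroid hormone) or its NaOH vehicle for 6 h or 24 h, which gave 4 groups of 2 libraries. The libraries were made from total RNA after depletion of ribosomal RNA. The labels do not say whether the 2 libraries of a group came from separate cultures, and the p-values therefore speak only of the spread between libraries, which may be technical.

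Thyroid hormone receptors are nuclear receptors that sit on DNA with or without hormone. Without T3 they recruit corepressor complexes, and T3 exchanges these for coactivators, so that a directly induced gene is held low in hormone-free medium and rises when T3 is given. The receptors, often paired with the retinoid X receptor, bind repeats of the half-site AGGTCA, classically a direct repeat with a 4-base spacer. The target genes below act in transcription (HR, BCL3, STAT5A), protein processing (FURIN), fuel use and redox balance (ME1, PDK4, TXNIP) and calcium handling (ATP2A2, NRGN).

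RefSeq promoter windows (GRCh38.p14, 250 bases before to 50 after a start) were taken by symbol for 8 of the 9 genes. These were 15 windows in all. No window of HR was among them, so the promoter of HR was not examined, and its lack of a match here is not a result. The direct repeat, AGGTCA and again AGGTCA after any 4 bases, was searched on both strands and was in 0 of these 15 windows and in 0.0199% of all 35116 windows. The half-site AGGTCA alone, which the direct repeat contains, was in 2 of the 15, 1 of FURIN and 1 of STAT5A, and in 13.8% of all windows. The carbohydrate response element, CACGNG and CNCGNG parted by any 5 bases, which binds the glucose-sensing factors ChREBP and MondoA, was in 1 of the 15, a window of TXNIP, and in 0.501% of all windows. The matches are printed for FURIN and TXNIP, which besides HR were the members called between T3 and vehicle at 24 h, and for STAT5A, which held the other half-site. A match is a run of letters and was not tested as a binding site. Capitals mark the match, and TGACCT is AGGTCA read on the other strand. The FURIN stretch is chr15:90871918-90872017 (plus strand), within the gene and in no annotated exon, with the match 210 to 205 bases before a RefSeq start. The STAT5A site is chr17:42288444-42288473 (plus strand), in an annotated exon of another transcript, with the match 42 to 37 bases before the start. The TXNIP stretch is chr1:145996610-145996709 (minus strand), upstream of the gene, with the match 88 to 72 bases before the start.
FURIN: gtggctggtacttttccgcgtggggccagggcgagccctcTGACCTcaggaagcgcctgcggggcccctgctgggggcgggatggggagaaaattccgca
STAT5A: atcgcaggcagcTGACCTttgaggaggaaa
TXNIP: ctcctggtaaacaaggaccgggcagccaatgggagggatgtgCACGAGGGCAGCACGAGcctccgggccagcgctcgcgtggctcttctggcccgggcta

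Reads counted in genes ran from 2517983 to 8201606 per library, so 3 counts, taken as the floor, stood for 0.366 to 1.19 CPM (the count of a gene scaled to 1e6 counts in its library). Of the thyroid markers, PAX8 (4.02 to 155 CPM), FOXE1 (6.84 to 25 CPM) and HHEX (12.9 to 20 CPM) were above the floor in all libraries, while TG, TSHR and NKX2-1 stayed between 0 and 0.724 CPM and SLC5A5 between 0 and 1.51 CPM. The epithelial keratin genes KRT8 and KRT18 stood at 96.3 to 222 and 108 to 295 CPM, EPCAM at 1.36 to 11.7 CPM and CDH1 at 0 to 1.64 CPM. Summed markers of endothelial, immune and C cells reached at most 0.678, 2.46 and 0.409 CPM, with CDH5, CD3E and CALCA at 0 in all libraries. Summed fibroblast markers stood at 15.7 to 26.8 CPM, mostly PDGFRB at 13.3 to 25.3 CPM. DCN stood at 1.81 to 3.62 CPM at 6 h and at 0 in all libraries of 24 h. KLF9 is a classical direct target gene that encodes a transcription factor. At 6 h KLF9 stood at 0.904 and 0.818 CPM with vehicle and at 13.4 and 14.1 CPM with T3. The vehicle levels rested on 3 and 2 counts, at or under the floor. The pooled ratio was 15.9, with an exact 95% binomial interval of 6.62 to 50.1 for counting error only. At 24 h KLF9 stood at 20.8 and 31.4 CPM in the libraries labelled vehicle and 2.79 and 3.35 CPM in those labelled T3. The direction of KLF9 at 24 h was thus opposite to that at 6 h, and the cause was not tested. All directions at 24 h refer to the libraries as labelled. The receptor gene THRB did not pass the threshold between T3 and vehicle at either time (log2 fold change -0.66, SE 0.36, edgeR adjusted p = 0.3 at 6 h, and -0.03, SE 0.21, adjusted p = 0.946 at 24 h), and ranged from 6.63 to 9 CPM with vehicle at 6 h and from 29.4 to 41 CPM at 24 h. The receptor gene THRA was lower with T3 at both times (log2 fold change -0.64, SE 0.18, edgeR adjusted p = 0.0412, and -0.70, SE 0.19, adjusted p = 0.0238).

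At 6 h of T3, HR was the only 1 of the 9 genes that passed the test, and it rose. Levels are CPM scaled by TMM, a normalisation that equalises the bulk of genes between libraries. HR encodes a corepressor that binds the receptors themselves and also demethylates histone H3. It stood at 68.4 and 58.5 CPM with vehicle and at 116 and 102 CPM with T3, so both T3 libraries were above both vehicle libraries. The ratio of means was 1.71 and the log2 fold change 0.77 (SE 0.17, 95% interval 0.41 to 1.12, edgeR adjusted p = 0.012). In bulk RNA a change in the number of cells that express a gene and a change per cell cannot be told apart. HR missed the threshold when any 1 of the 4 libraries of 6 h was left out (edgeR adjusted p from 0.0811 to 0.187, log2 fold change 0.69 to 0.90). With the trends with GC content and length removed, its log2 fold change was 1.17 (edgeR adjusted p = 0.000744). Markers also differed between these groups: PAX8 stood at 9.95 to 13.5 CPM with vehicle and 4.02 to 4.34 CPM with T3, summed thyroid markers at 42.5 to 43.4 and 27 to 34.7 CPM, summed fibroblast markers at 25.4 to 26.8 and 15.7 to 16.3 CPM, and summed epithelial markers, which overlapped, at 469 to 527 and 468 to 482 CPM. Their part in the HR result was not tested.

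**Figure D1:**
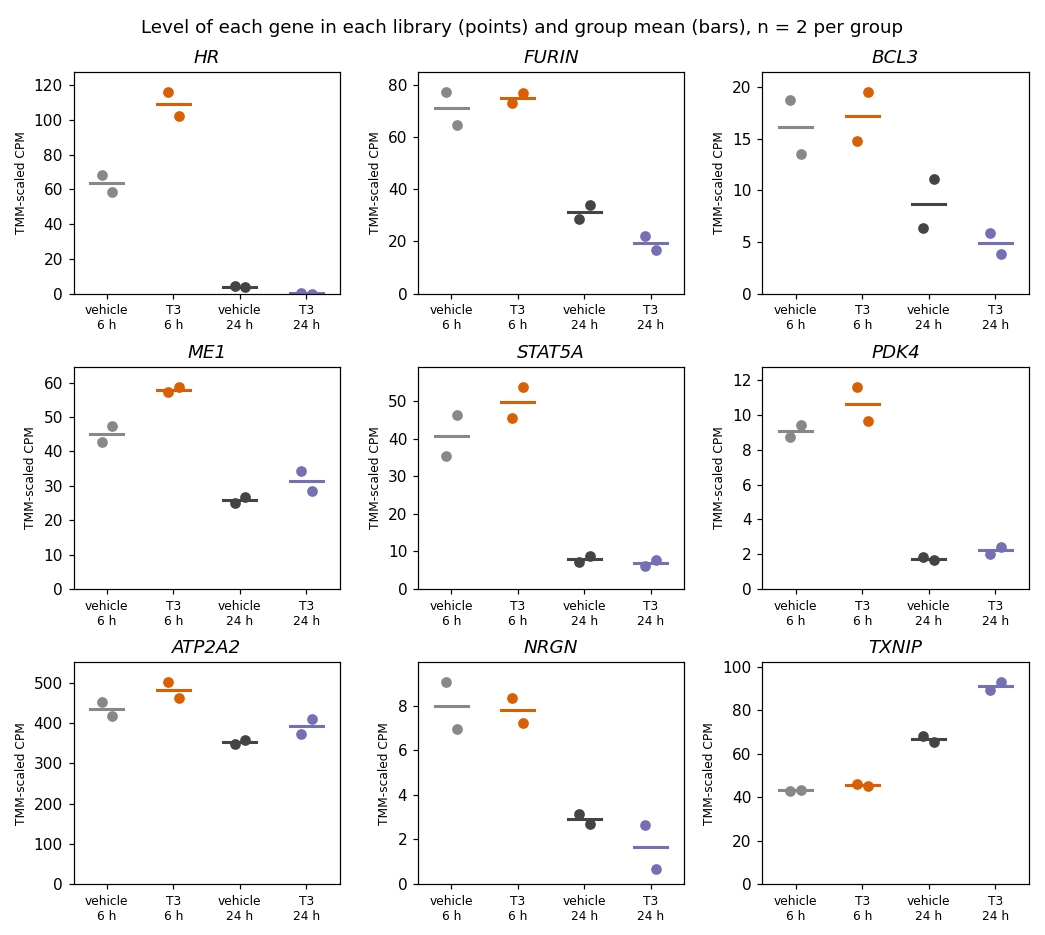
TMM-scaled CPM (vertical axis of each panel, starting at 0) of the 9 genes in the 8 libraries (points) with the group mean (bar), by group on the horizontal axis. HR stood highest with T3 at 6 h, at 116 and 102 CPM, and lowest in the T3 libraries of 24 h, at 0.31 and 0.116 CPM, and TXNIP was highest in the T3 libraries of 24 h, at 89.6 and 92.9 CPM.

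The other transcription regulators did not pass the test at 6 h. BCL3, an atypical IkB family member that binds NF-kB subunits in the nucleus, stood at 18.7 and 13.5 CPM with vehicle and 14.8 and 19.5 CPM with T3. STAT5A, which carries cytokine and prolactin signals to the nucleus, stood at 35.3 and 46.2 CPM and at 45.6 and 53.7 CPM. In both genes the groups overlapped. The log2 fold changes were 0.10 for BCL3 (95% interval -0.61 to 0.80, edgeR adjusted p = 0.901) and 0.30 for STAT5A (95% interval -0.15 to 0.75, edgeR adjusted p = 0.431).

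FURIN, the convertase that cleaves proproteins in the secretory pathway, also overlapped between the groups at 6 h, with 77.2 and 64.7 CPM under vehicle and 73.1 and 76.8 CPM under T3 (log2 fold change 0.08, 95% interval -0.29 to 0.44, edgeR adjusted p = 0.84). Its upper limit lies below the HR estimate but within the HR interval of 0.41 to 1.12, and no gene was tested against HR.

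Among the metabolic genes ME1 had the largest estimate at 6 h, without passing the threshold. ME1 encodes the cytosolic malic enzyme, which makes NADPH for lipid synthesis and is a textbook T3-induced enzyme of liver. It stood at 42.8 and 47.5 CPM with vehicle and at 57.2 and 58.7 CPM with T3, with no overlap, and had a log2 fold change of 0.37 (SE 0.18, 95% interval -0.01 to 0.74, edgeR adjusted p = 0.223). After removal of the GC and length trends this estimate was 0.06 (edgeR adjusted p = 0.901). PDK4, the kinase that shuts down pyruvate dehydrogenase, rested on 29 and 23 counts (8.74 and 9.41 CPM) and on 32 and 48 counts (11.6 and 9.66 CPM), where the log2 fold change was 0.22 with a wide interval of -0.61 to 1.05 (edgeR adjusted p = 0.79). TXNIP, which binds and inhibits thioredoxin and limits glucose uptake, stood at 42.8 and 43.4 CPM and at 46.3 and 45.3 CPM, with an estimated change of 0.09 on the log2 scale (95% interval -0.24 to 0.42, edgeR adjusted p = 0.791). PDK4 and TXNIP levels with T3 were above those with vehicle in both libraries, by less than the fit could separate.

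The calcium genes did not pass at 6 h either. ATP2A2, the endoplasmic reticulum calcium pump SERCA2, is a well known T3 target of heart muscle and was the most abundant of the 9 genes. It stood at 453 and 418 CPM with vehicle and at 501 and 462 CPM with T3, and its log2 fold change was 0.14, with an interval of -0.10 to 0.39 that ends below the HR estimate (edgeR adjusted p = 0.498). NRGN, which encodes neurogranin, a calmodulin-binding protein induced by T3 in brain, rested on 30 and 17 counts against 23 and 36 (9.04 and 6.96 CPM against 8.32 and 7.24 CPM), for a change of -0.06 in log2 (95% interval -1.11 to 0.99, edgeR adjusted p = 0.963). This interval was the widest of the 9 at 6 h.

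Over the 9 genes, then, 1 was higher and 0 lower at 6 h, where 7.64% of the 14611 genes tested were called in either direction, 3.78% higher and 3.86% lower. Of the 9 log2 fold changes 8 were above 0, and their median was 0.14 against -0.02 over all genes tested. DESeq2 likewise called 1 of the 9 at 6 h. The plot of T3 responses shows HR alone clear of 0 at 6 h.

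**Figure D2:**
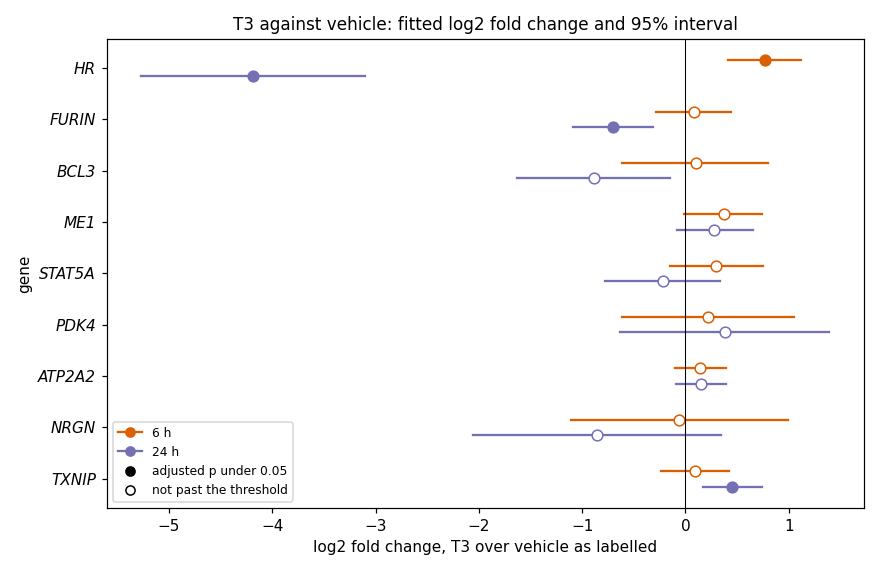
Fitted log2 fold change of T3 over vehicle, as labelled (horizontal axis), for each of the 9 genes at 6 h (orange) and 24 h (purple), with 95% intervals of the fit as lines and filled points where the edgeR adjusted p was under 0.05. HR stood at 0.77 at 6 h and -4.19 at 24 h, the latter fitted on 3 counts in the T3 libraries.

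At 24 h, HR and FURIN were lower and TXNIP higher in the libraries labelled T3 than in those labelled vehicle, and HR differed by far the most. The 2 vehicle libraries of 24 h, the reference here, stood furthest apart of the 4 pairs of replicates: a chi-square of their counts over genes was 27.8 per degree of freedom, against 7.24 for T3 at 24 h and, at 6 h, 4.1 for vehicle and 2.69 for T3. Summed epithelial markers stood at 245 to 304 CPM with vehicle and 214 to 218 CPM with T3, and summed fibroblast markers at 24.4 to 25.5 and 20.5 to 21.9 CPM, without overlap, and their part was not tested. HR rested on 19 and 26 counts in the vehicle libraries (4.29 and 3.89 CPM) and on 2 and 1 counts in the T3 libraries (0.31 and 0.116 CPM), at or under the floor. Pooled over each group, HR was 20.4 times higher with vehicle, with a counting interval of 6.54 to 102 (exact 95% binomial, counting error only; edgeR adjusted p = 0.000281). This call was kept in all 8 fits that left out 1 library (highest edgeR adjusted p = 0.00321). It was also kept with GC and length trends removed (edgeR adjusted p = 0.00257). With only the 24 h libraries the call was kept but less firm (edgeR adjusted p = 0.0231). The SE of the log2 fold change was then 0.92, against 0.51 in the fit of all libraries.

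FURIN stood at 28.5 and 33.8 CPM in the vehicle libraries and at 22 and 16.9 CPM in the T3 libraries of 24 h, without overlap, and its log2 fold change was -0.70 (SE 0.18, 95% interval -1.09 to -0.31, edgeR adjusted p = 0.0212). It missed the threshold when replicate 2 of either 24 h group was left out (edgeR adjusted p = 0.114 for vehicle and 0.115 for T3), with only the 4 libraries of 24 h (0.0962), in DESeq2 (adjusted p = 0.0503) and with GC and length trends removed, where its log2 fold change was -0.24 (adjusted p = 0.522). TXNIP stood at 68.2 and 65.3 CPM in the vehicle libraries and at 89.6 and 92.9 CPM in the T3 libraries, again without overlap, a ratio of means of 1.37 and a log2 fold change of 0.45 (SE 0.13, 95% interval 0.17 to 0.74, edgeR adjusted p = 0.036). Its replicates lay close together, yet the call was lost in each of the 8 fits that left out 1 library (edgeR adjusted p from 0.0554 to 0.114, log2 fold change 0.41 to 0.47), without the filter on low counts (0.108), with only the 24 h libraries (0.1), in DESeq2 (adjusted p = 0.104) and with GC and length trends removed (log2 fold change 0.25, adjusted p = 0.316).

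BCL3 and NRGN had estimates as low as that of FURIN at 24 h but did not pass. BCL3 stood at 6.33 and 11.1 CPM against 5.89 and 3.82 CPM, with a log2 estimate of -0.89 (95% interval -1.63 to -0.15, edgeR adjusted p = 0.104). NRGN rested on 14 and 18 counts against 17 and 6 (3.16 and 2.69 CPM against 2.64 and 0.694 CPM), with a log2 estimate of -0.86 (95% interval -2.06 to 0.34, edgeR adjusted p = 0.341). Single libraries set these estimates. BCL3 stood at -0.41 without vehicle replicate 2 of 24 h (edgeR adjusted p = 0.637) and NRGN at -0.14 without T3 replicate 2 of 24 h (adjusted p = 0.884). BCL3 passed when replicate 1 of either 24 h group was left out (edgeR adjusted p = 0.0439 for vehicle and 0.0388 for T3), and NRGN, with a log2 fold change of -2.03, without T3 replicate 1 of 24 h (adjusted p = 0.0305).

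The remaining genes did not pass at 24 h. ME1 stood at 24.9 and 26.6 CPM with vehicle and 34.4 and 28.6 CPM with T3, a log2 estimate of 0.28 (95% interval -0.08 to 0.65, edgeR adjusted p = 0.302). As at 6 h, both T3 libraries were above both vehicle libraries. With 2 libraries a group, a lack of overlap is weak evidence here and elsewhere, and its share over all genes was not counted. With GC and length trends removed, the ME1 estimate at 24 h was -0.06 (edgeR adjusted p = 0.912). STAT5A stood at 7.23 and 8.82 CPM against 6.05 and 7.75 CPM, overlapping (log2 fold change -0.22, 95% interval -0.78 to 0.33, edgeR adjusted p = 0.624). PDK4 rested on 8 and 11 counts against 13 and 21 (log2 fold change 0.38, 95% interval -0.63 to 1.39, edgeR adjusted p = 0.649). ATP2A2 stood at 348 and 359 CPM against 373 and 410 CPM, again slightly higher in both T3 libraries (log2 fold change 0.15, 95% interval -0.09 to 0.39, edgeR adjusted p = 0.416), the same size as at 6 h.

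Of the 9 genes 1 was called higher and 2 lower at 24 h, where 13.3% of all genes tested were called, 5.58% higher and 7.75% lower (816 higher and 1132 lower over all genes, or 57 and 199 of 12577 annotated genes with GC and length trends removed). The median of the 9 log2 fold changes was -0.22, against -0.01 over all genes, and 4 of the 9 were above 0. With GC and length trends removed, HR alone of the 9 was called.

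GC content went with the order of the 24 h changes. HR (65.7% GC in its longest transcript), BCL3 (67.4%), NRGN (64.7%) and FURIN (61.7%) had the 4 lowest log2 fold changes of T3 over vehicle, STAT5A (57.8%) the next, and ATP2A2 (47.2%), TXNIP (43.9%), ME1 (39.5%) and PDK4 (39.4%) were all above 0. Removing the trend that each library had with GC content and exon length over 12577 genes moved BCL3 to -0.23, NRGN to -0.29, PDK4 to 0.04 and ME1 to -0.06, while HR stayed at -3.65. What gave the libraries this trend was not tested.

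**Figure D3:**
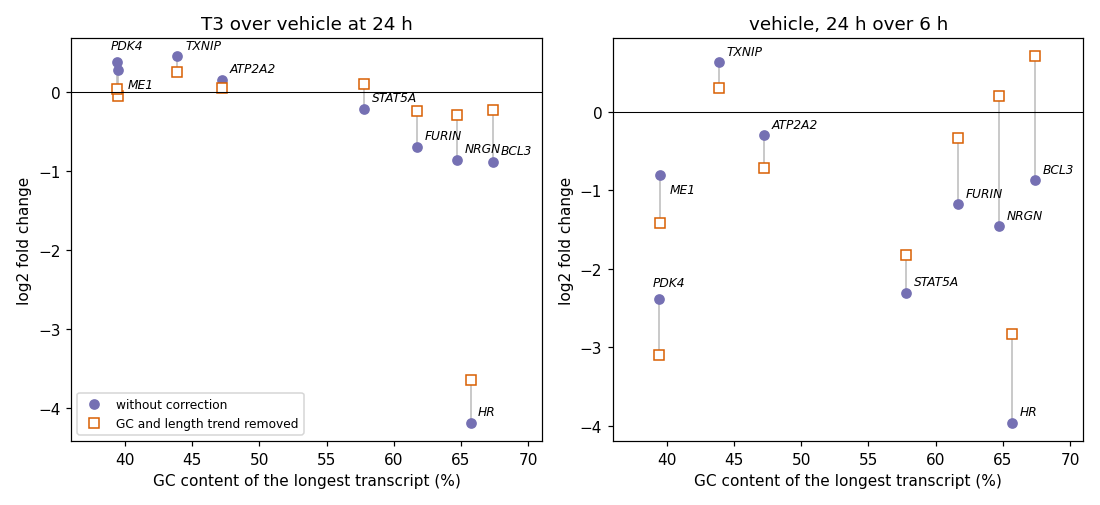
Log2 fold change (vertical axis) against GC content of the longest transcript in percent (horizontal axis) for the 9 genes, T3 over vehicle at 24 h on the left and vehicle at 24 h over 6 h on the right, before (filled circles) and after (open squares) removal of the GC and length trends, joined by a line per gene. On the left 8 of the 9 genes come to lie between -0.29 and 0.25 after removal and HR at -3.65.

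The T3 response of HR differed between the times by the test of the difference itself (edgeR adjusted p = 0.000128), higher with T3 at 6 h and lower with T3 at 24 h. HR was the 1 member among 269 genes that passed this test, or 1.84% of those tested (0.849% with a positive and 0.992% with a negative difference). KLF9, on the same test, had an edgeR adjusted p = 4.08e-06, also with a rise at 6 h and lower levels in the libraries labelled T3 at 24 h. FURIN had a difference of -0.77 (95% interval -1.31 to -0.24, edgeR adjusted p = 0.129), and passed without the filter on low counts (adjusted p = 0.0479) and when replicate 1 of either 24 h group was left out (0.0413 for vehicle and 0.0492 for T3). For the other 7 genes the intervals included 0, the narrowest being that of ATP2A2 at -0.34 to 0.35 and the widest that of NRGN at -2.39 to 0.79.

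All 9 genes were called between 6 h and 24 h. Of the 9 genes 8 were lower and TXNIP was higher at 24 h than at 6 h, both between the vehicle libraries and between the T3 libraries. The background is high: 64.5% of all genes tested were called between the vehicle libraries and 70.4% between the T3 libraries, with 31.9% and 35.1% called higher and 32.6% and 35.2% called lower. The medians of the 9 log2 fold changes were -1.18 with vehicle and -1.96 with T3, against 0.03 and 0.02 over all genes. The vehicle libraries of 24 h also enter the T3 comparison of 24 h, and those of 6 h that of 6 h. Reads in genes made up 12.9% to 17.1% of a library's table at 6 h and 19.5% to 24.4% at 24 h. This difference cannot be told apart from time.

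HR stood 15.5 times higher in the vehicle libraries of 6 h than in those of 24 h (63.5 ± 7.01 against 4.09 ± 0.288 CPM, mean ± SD, n = 2 each), and the fit gave -3.96 on the log2 scale (SE 0.23, edgeR adjusted p = 1.79e-10). Between the T3 libraries HR fell from 826 counts over the group to 3, or 537 times lower per library size (counting interval 183 to 2612). STAT5A and PDK4 showed the next largest falls with vehicle, with log2 fold changes of -2.31 (SE 0.24, edgeR adjusted p = 3.26e-07) and -2.38 (SE 0.46, edgeR adjusted p = 0.000217). With T3 their log2 fold changes were -2.84 (SE 0.23) and -2.22 (SE 0.41), so libraries with and without hormone shared the direction.

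FURIN fell with time, with log2 fold changes of -1.18 (SE 0.18) under vehicle and -1.96 (SE 0.18) under T3, and BCL3 with -0.87 (SE 0.34) and -1.86 (SE 0.35). ME1 fell with -0.80 (SE 0.18) and -0.89 (SE 0.17), and NRGN with -1.46 (SE 0.53) and -2.27 (SE 0.54), in the same order. ATP2A2, from 436 ± 24.6 to 353 ± 8.15 CPM with vehicle and from 481 ± 27.5 to 392 ± 25.6 CPM with T3 (mean ± SD, n = 2 each), fell the least, with a log2 fold change of -0.30 (SE 0.11) in each. TXNIP rose by 0.63 (SE 0.15, edgeR adjusted p = 0.00139) with vehicle and by 1.00 (SE 0.14, edgeR adjusted p = 7.9e-06) with T3.

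**Figure D4:**
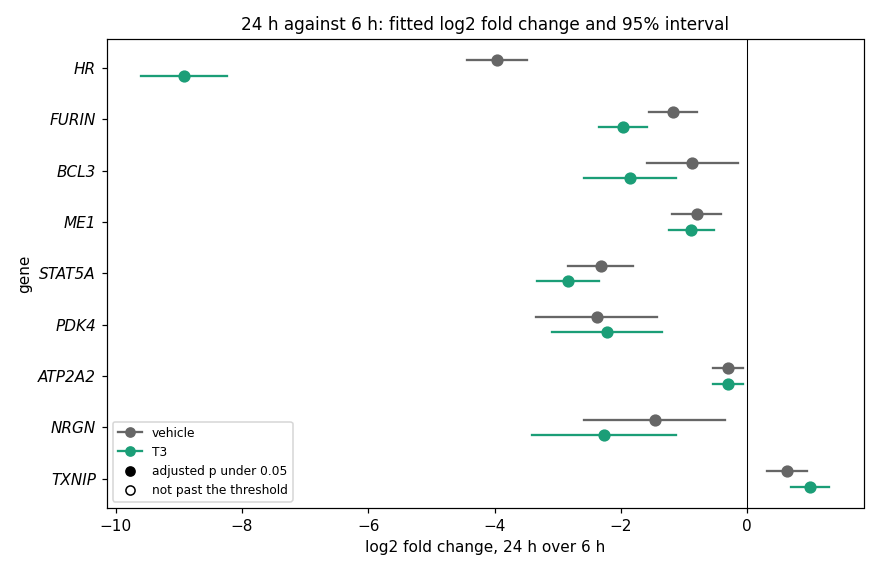
Fitted log2 fold change of 24 h over 6 h (horizontal axis) for each of the 9 genes in the vehicle libraries (grey) and the T3 libraries (green), with 95% intervals of the fit as lines. All points are filled, which marks an edgeR adjusted p under 0.05, and TXNIP alone lies above 0, at 0.63 and 1.00.

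Several of these time changes were less firm than others. Between the vehicle libraries, the call for BCL3 was lost when replicate 1 of vehicle at either time or a T3 library of 6 h was left out (highest edgeR adjusted p = 0.309) and in DESeq2 (adjusted p = 0.113). NRGN lost it without vehicle replicate 1 of 6 h or either vehicle library of 24 h (highest edgeR adjusted p = 0.169) and in DESeq2 (adjusted p = 0.0768). ATP2A2 lost it in 5 of the 8 fits that left out 1 library (highest edgeR adjusted p = 0.175), without the low-count filter (0.131) and with only the vehicle libraries (0.105), and between the T3 libraries when either of those of 6 h or replicate 1 of 24 h was left out (highest edgeR adjusted p = 0.2). With GC and length trends removed, 5 of the 9 genes were called between the vehicle libraries, namely HR (-2.83), STAT5A (-1.83), PDK4 (-3.10), ME1 (-1.42) and ATP2A2 (-0.72, all log2 fold changes), while the estimates of BCL3 and NRGN had the other sign (0.71 and 0.20) and FURIN (-0.33) and TXNIP (0.30) missed the threshold. Between the T3 libraries BCL3 then stood at 0.02 and NRGN at -0.30, and the other 7 genes were called. Over the 12577 annotated genes this fit called 3521 higher and 4190 lower between the vehicle libraries and 3710 higher and 4830 lower between the T3 libraries. Markers moved with time as well: summed thyroid markers stood at 27 to 43.4 CPM at 6 h and 148 to 192 CPM at 24 h, of which PAX8 was 4.02 to 13.5 and 108 to 155 CPM, and summed epithelial markers at 468 to 527 CPM and 214 to 304 CPM. Their part in these results was not tested.

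The order of the 4 groups, as labelled, was therefore not 1 pattern. KLF9 had opposite directions of T3 over vehicle at 6 h and 24 h. Were the 24 h labels exchanged, which was not tested, T3 and vehicle at 24 h would swap places in each order given here. HR ran from T3 at 6 h through vehicle at 6 h and vehicle at 24 h to T3 at 24 h, and each neighbouring pair differed past the threshold. FURIN and BCL3 had the same order of means, but the 2 groups of 6 h overlapped in both genes. The 2 groups of 24 h did not overlap in BCL3, though their difference missed the adjusted threshold. STAT5A too had this order, with overlap within each time. ME1, PDK4 and ATP2A2 ran from T3 at 6 h through vehicle at 6 h and T3 at 24 h to vehicle at 24 h, with no pair within a time past the threshold. NRGN had nearly equal means at 6 h, 8 ± 1.48 CPM with vehicle and 7.78 ± 0.765 CPM with T3 (mean ± SD, n = 2 each), above both groups of 24 h. TXNIP ran the other way, from T3 at 24 h through vehicle at 24 h to the 2 groups of 6 h.

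The genome positions are those of GENCODE 29 on GRCh38, and all 9 genes are annotated as protein-coding. HR lies on chromosome 8 from 22114415 to 22133384 on the minus strand, BCL3 on chromosome 19 from 44747705 to 44760044 on the plus strand and STAT5A on chromosome 17 from 42287547 to 42311943 on the plus strand. FURIN lies on chromosome 15 from 90868592 to 90883458 on the plus strand and ME1 on chromosome 6 from 83210389 to 83431071 on the minus strand. PDK4 lies on chromosome 7 from 95583499 to 95596491 and TXNIP on chromosome 1 from 145992435 to 145996600, both on the minus strand. ATP2A2 lies on chromosome 12 from 110280756 to 110351093 and NRGN on chromosome 11 from 124739846 to 124747210, both on the plus strand. The whole spans of ME1 and NRGN each overlap a noncoding gene or pseudogene on the other strand. That of BCL3 overlaps MIR8085, with 0 counts, on the same strand. Overlap of exons was not checked, and the strand setting of the counting is not given in the sources used here. Whether reads from the overlapping genes were included is therefore not known.

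Levels between genes were compared per length, as CPM per kilobase of annotated exon. With vehicle at 6 h the level was 31.7 for ATP2A2, 15 for FURIN, 13.4 for ME1, 11.9 for TXNIP, 7.23 for HR, 7.08 for STAT5A, 6.11 for NRGN, 4.96 for BCL3 and 2.01 for PDK4. HR and STAT5A stood next to each other on this scale. In the T3 libraries of 24 h TXNIP stood second at 25.2 CPM per kilobase, next to ATP2A2 at 28.5, and HR last at 0.0242.

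Across the 8 libraries log2 CPM of HR followed that of FURIN most closely among the members (Pearson r = 0.99) and ran against that of TXNIP (r = -0.98), with values of 0.72 to 0.95 for the other 6 genes. These are descriptions over 8 libraries that differ in depth, GC trend and time, which all genes of a library share, and r takes no account of the size of a change. Among 14550 other genes with a mean of at least 1 CPM, the 5 most like HR were LRRK1 (r = 0.9980), TOMM40 (0.9971), ACAA1 (0.9971), NUP62 (0.9967) and HIST1H2AK (0.9960), a histone gene with near-identical copies. None of them spanned the range of HR: LRRK1, a kinase gene, went from 75.8 CPM with T3 at 6 h to 21.2 CPM in the T3 libraries of 24 h. The genes most like FURIN were U2AF2, USE1, PMF1, PSMD8 and H2AFX (r from 0.9964 to 0.9974), and those most like TXNIP were ACAP2, MDM2, TMEM245, SOWAHC and ZDHHC2 (r from 0.9932 to 0.9958).

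A further 36 genes described as responsive to thyroid hormone in liver, heart, brain, fat or pituitary were listed for comparison. Only 20 of them passed the low-count filter. At 6 h 3 of the 20 were higher and 0 lower with T3, where 3.78% of all genes tested were called higher and 3.86% lower, and their median log2 fold change was 0.17 against -0.02 over all genes. SLC16A6, a gene of the monocarboxylate transporter family, stood at 89.8 and 88 CPM with vehicle and 167 and 166 CPM with T3 (log2 fold change 0.90, SE 0.17, edgeR adjusted p = 0.00564), beside 0.77 for HR. CGA, the common alpha subunit of the pituitary glycoprotein hormones, rested on 19 and 14 counts against 35 and 102 (log2 fold change 1.55, SE 0.45, edgeR adjusted p = 0.0492), the opposite of the repression known from pituitary, and had no count in any library of 24 h. SLC16A6 missed the threshold when replicate 1 of vehicle or either T3 library of 6 h was left out (highest edgeR adjusted p = 0.0957). CGA missed it without any 1 of the 4 libraries of 6 h (highest edgeR adjusted p = 0.576), with GC and length trends removed (0.124), in DESeq2 (adjusted p = 0.144) and with a replicate block (edgeR adjusted p = 0.0658).

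At 24 h 1 of these 20 genes was higher and 1 lower in the libraries labelled T3, a share near the 13.3% called over all genes (5.58% higher and 7.75% lower). Their median was -0.04 against -0.01 over all genes. Among the 20 were genes at or near 0 counts in the 24 h libraries. CGA, with no count there, could not be called but entered the share and the median. SLC16A6 was again higher, at 31.3 and 35.2 CPM against 15.6 and 26.6 CPM (log2 fold change 0.62, SE 0.19, edgeR adjusted p = 0.0408), where HR and KLF9 were lower. This call for SLC16A6 was lost in 6 of the 8 fits that left out 1 library, in which the log2 fold change fell to 0.29 without vehicle replicate 1 of 24 h (adjusted p = 0.323), with only the 24 h libraries (0.158) and with GC and length trends removed (0.427). Its T3 response did not differ past the threshold between the times (difference -0.28, SE 0.26, edgeR adjusted p = 0.659). FASN, which encodes fatty acid synthase, was lower, at 33.9 and 22.3 CPM against 54.9 and 50.7 CPM (log2 fold change -0.92, SE 0.18, edgeR adjusted p = 0.00504), a call kept in all 8 leave-outs and lost with GC and length trends removed (-0.33, adjusted p = 0.26).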

How the data were processed

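The deposited files held raw read counts per gene symbol, 1 library per file. The submitters' processing notes name hg38 and, with no order, CASAVA 1.7, HTSeq, STAR 2.7 and DESeq2. Annotation, strand setting and trimming: not given in the sources used here. The 5 summary rows per library were left out of library sizes and tests. Reads in genes were 12.9% to 15.4% of a library's table with vehicle and 16.5% to 17.1% with T3 at 6 h. At 24 h they were 19.5% to 21.7% and 22.8% to 24.4%. Reads not aligned uniquely were 62.6% to 67.4% and 61.2% to 63.6% at 6 h, and 56.3% to 57.1% and 47.6% to 50% at 24 h. These shares differed with time and, except reads not aligned uniquely at 6 h, with treatment, and their part was not tested. The main test was edgeR 4.0.16 in R 4.3.3 (TMM, filterByExpr, robust quasi-likelihood F test, 1 coefficient per group, all 8 libraries, 4 residual degrees of freedom). Benjamini-Hochberg adjustment ran over 14611 genes, with a threshold of 0.05. The script was tested on simulated counts with genes changed in 1 group only, the same spread in all groups and no genes of few counts. That setting differs from these data, so the simulation does not bear on the calls given here. SE is the size of the log2 fold change over the square root of F, and intervals use the test's degrees of freedom. Fitted fold changes of HR at 24 h depend on the prior count, so ratios with exact 95% binomial intervals are given. These binomial intervals and the floors cover counting error only. GC content (longest transcript) and exon length came from GENCODE 29, which may not be the annotation used for counting; trends were removed with lowess offsets (span 0.3) for 12577 genes matched by symbol. Likeness is the Pearson correlation of log2 CPM (prior count 2). Alternatives were RLE size factors (edgeR), no filter, DESeq2 1.42.0, only the libraries compared, a replicate block, GC and length correction, and leaving out each library. Named were all 9 genes, KLF9, THRA and THRB, those of the 36 further genes called between T3 and vehicle (except an item not reported here), and the 5 genes most like each member so called. The members and lists were chosen with earlier results of these data known.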

Additional observations from a re-analysis of the deposited data

Results flagged for a closer look

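HR was the 1 gene of the 9 whose T3 responses at 6 h and 24 h differed by the test of the difference. The fitted difference was -4.96 on the log2 scale (SE 0.54, edgeR adjusted p = 0.000128), a size that depends on the prior count because the T3 libraries of 24 h held 3 counts. The call was kept in all 8 fits that left out 1 library (log2 difference -5.63 to -4.38).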

How the results depend on the processing

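Of 689 gene values under alternatives, 595 kept direction and side of the threshold, 67 lost the call, 6 gained it and 21 changed sign, mostly values near 0. Unless a value above shows it, the cause was not tested. Of the 9 genes, those called when 1 library was left out numbered 0 to 1 at 6 h (1 with all), 1 to 4 at 24 h (3 with all), 6 to 9 with time under vehicle and 1 to 2 for the difference of T3 responses (1 with all). Over all genes these fits called 131 to 1681 at 6 h (131, 612, 134 and 154 without vehicle replicates 1 and 2 and T3 replicates 1 and 2 of 6 h, in that order, and 1681 without vehicle replicate 1 of 24 h; 1117 with all), 1128 to 2056 at 24 h (1128 and 1180 without T3 replicates 1 and 2 of 6 h; 1948 with all) and 49 to 750 for the difference (269 with all). At 6 h, log2 fold changes ran from -0.00 to 0.22 for FURIN, -0.12 to 0.37 for BCL3 and -0.19 to 0.16 for NRGN, and differences from -0.08 to 0.05 for ATP2A2 and -0.24 to 0.03 for ME1.

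With only the libraries compared, 2898 genes were called at 6 h and 702 at 24 h, 1 of the 9 among the latter. DESeq2 called 1184 at 24 h, again 1 of the 9. Without the filter, 674 genes and 2 of the 9 passed for the difference, NRGN stood at 0.00 at 6 h and the ATP2A2 difference at -0.09. With GC and length trends removed, 466 of 12577 genes were called at 6 h and 256 at 24 h, with 1 of the 9 at 24 h and 5 with time under vehicle. That fit gave PDK4 -0.06, NRGN 0.21 and TXNIP -0.07 at 6 h, ME1 -0.06 and STAT5A 0.10 at 24 h, BCL3 0.71 and NRGN 0.20 with time under vehicle, BCL3 0.02 with time under T3 and ATP2A2 -0.13 for the difference. RLE size factors kept all calls of the 9.

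Replicate numbers are shared across groups, and deviations of same-numbered libraries correlated by -0.04 to 0.10 over 14551 genes. With 2 libraries a group, such values cannot show whether same-numbered libraries shared a culture or batch. With a replicate block 1, 3, 9, 9 and 1 of the 9 genes were called in the 5 comparisons, and 1232, 2057, 9350, 10207 and 321 genes over all. Depth limits PDK4, NRGN and BCL3, with counts of 6 to 97 per library, and HR in the T3 libraries of 24 h.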
